A study of Macaca mulatta with 5 samples.

Results

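The transcripts described here are the short ones of the rhesus macaque gene models: every transcript with a gene identifier and an exon length of 200 bp or less, 5924 of the 51763 transcripts in the deposited lists (11.4%), which belong to 5922 genes. The rule used exon length and identifier alone, not an expression value. Poly(A)-positive RNA was sequenced from 5 tissues of male Macaca mulatta (cerebellum, kidney, lung, heart and spleen), with 1 strand-specific library per tissue made by dUTP incorporation, 90-bp paired-end reads and no treatment. The study's methods describe cerebellum, kidney, lung and heart as tissues of the same animal. The heart label also mentions extraction from 2 monkey tissues. The animal of the spleen library was not stated. With 1 library per tissue there was no replicate, so that no difference between tissues could be tested. The intervals given below are 95% intervals of the read counts, which cover counting error only and not the spread between animals.

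Most human and macaque genes annotated at this length are small structural or regulatory RNAs. The U1, U2, U4, U5 and U6 RNAs form the core of the spliceosome, and U7 takes part in the 3′ processing of histone mRNA. C/D box snoRNAs guide 2′-O-methylation of other RNAs, H/ACA box snoRNAs guide pseudouridylation, and scaRNAs do the same in Cajal bodies. MicroRNA entries are placed at hairpin precursors, and here they ran from 57 to 199 bp. Y RNAs and vault RNAs are small polymerase III products. As background, most of these RNAs carry no poly(A) tail, many snoRNAs and microRNAs lie in introns of longer genes, and snRNA and Y RNA genes have many near-identical pseudogene copies in primate genomes. How reads that align equally well to several copies were counted is not given in the sources used here, so the values of multicopy families are uncertain.

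The short transcripts ran from 24 to 200 bp, with a median of 105 bp and quartiles of 94 and 119 bp. Of the 5924, 5549 (93.7%) formed a single block whose span on rheMac2, the macaque genome build of the files, equalled the exon length. The other 375 spanned more, 180 of them by more than 200 bp. A reference table of gene names paired 2014 of them (34%) with a symbol, against 70.0% of the 37782 longer transcripts with an identifier. The named ones were 654 U6, 332 Y RNA, 310 microRNA, 157 C/D snoRNA, 143 U7, 109 H/ACA snoRNA, 79 U1, 68 U4, 52 U2, 24 5S rRNA, 22 U5, 10 minor spliceosomal RNA, 7 scaRNA, 5 vault RNA, 2 5.8S rRNA and 2 SRP RNA transcripts, beside 38 of protein-coding or other named genes. The other 3910 had no name in that table, and 23 of these lay on the mitochondrial chromosome. Named and unnamed together, the 5924 lay on 22 chromosomes, the mitochondrial one included, with the most on chromosome 7 (587) and chromosome 1 (578).

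The libraries held 48306898 (kidney) to 81517974 (cerebellum) properly mapped reads. Between 47.9% (heart) and 91.5% (lung) of the mapped reads were counted on transcripts. The tissue labels were checked with longer marker genes: 18 of the 19 tissue markers found were highest in their own tissue, and CALB1, a calcium-binding protein listed for cerebellum, was at 108 RPKM in cerebellum and 488 RPKM in kidney. Of the blood markers, 2 were found and they differed: SLC4A1 was at 8.49 RPKM in kidney and at 0.0563 RPKM or less elsewhere, while ALAS2 was highest in spleen at 0.947 RPKM and at 0.0862 RPKM in kidney.

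Poly(A)-positive libraries held few reads of these transcripts. At least 1 read in any tissue was counted for 814 of 5924 (13.7%), where 79.9% of all transcripts had a read, and 5110 had none. The 5924 short transcripts together held the largest share of the properly mapped reads in heart, 0.0356% (Wilson 95% interval 0.0351 to 0.0361). The share was 0.0207% in spleen (0.0204 to 0.0211), 0.0182% in lung (0.0179 to 0.0185), 0.00818% in cerebellum (0.00799 to 0.00838) and 0.0077% in kidney (0.00746 to 0.00795). A single transcript held 81.5% of the short-transcript reads of the heart library. Without the transcript with the most reads in each library, the shares were 0.0129% in both lung and spleen, 0.00695% in cerebellum, 0.00657% in heart and 0.00561% in kidney, and heart no longer stood above the others.

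What a read was worth depended on length. RPKM is the number of reads scaled to a kilobase of exon and to a fixed number of properly mapped reads, and a floor of 3 reads was taken as the smallest count reported as detection. At the median length of 105 bp, 3 reads equalled 0.35 RPKM in cerebellum, the deepest library, and 0.591 RPKM in kidney, the shallowest, with lung (0.367), spleen (0.426) and heart (0.451) between them. At 200 bp the floor was 0.184 to 0.311 RPKM, and for a transcript of 1000 bp it was 0.0368 to 0.0621 RPKM. A transcript of 24 bp, the shortest, would have stood at 1.53 to 2.59 RPKM with 3 reads. Between 122 (spleen) and 218 (cerebellum) short transcripts had 1 or 2 reads in a library, and their highest value was 0.46 RPKM, in kidney.

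**Figure D1:**
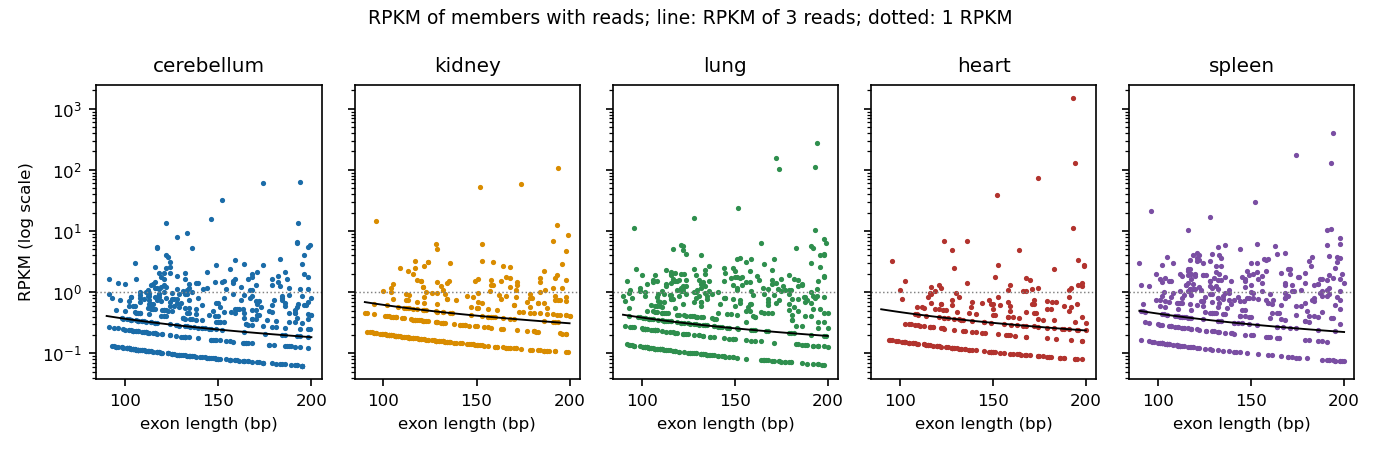
RPKM (log scale) against exon length (bp) of the short transcripts with 1 read or more, one panel per library. The lowest rows of points are transcripts of 1 and 2 reads, the black line is the RPKM of 3 reads, the dotted line is 1 RPKM, and the highest point is a transcript at 1503 RPKM in heart.

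Detection followed exon length. None of the 1227 transcripts under 90 bp, which is the read length, had a read in any of the 5 libraries. These included 139 of the 143 U7, 156 of the 310 microRNA and 76 of the 157 C/D snoRNA transcripts, for which a count of 0 cannot be read as absence of the RNA. Of the 4697 transcripts of 90 bp or more, 17.3% had a read. The share with a read was 8.38% at 90 to 109 bp, 20.8% at 110 to 129 bp, 29.2% at 130 to 149 bp, 34.7% at 150 to 169 bp and 44.3% at 170 to 200 bp. Just above the limit, 44.9% of the transcripts of 201 to 250 bp with an identifier had a read, and the share reached 98.9% at 2001 to 5000 bp. The shortest transcript with a read was mml-mir-25, a 90-bp microRNA entry, with 0 reads in cerebellum, 0 in heart, 2 in kidney, 6 in lung and 18 in spleen.

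**Figure D2:**
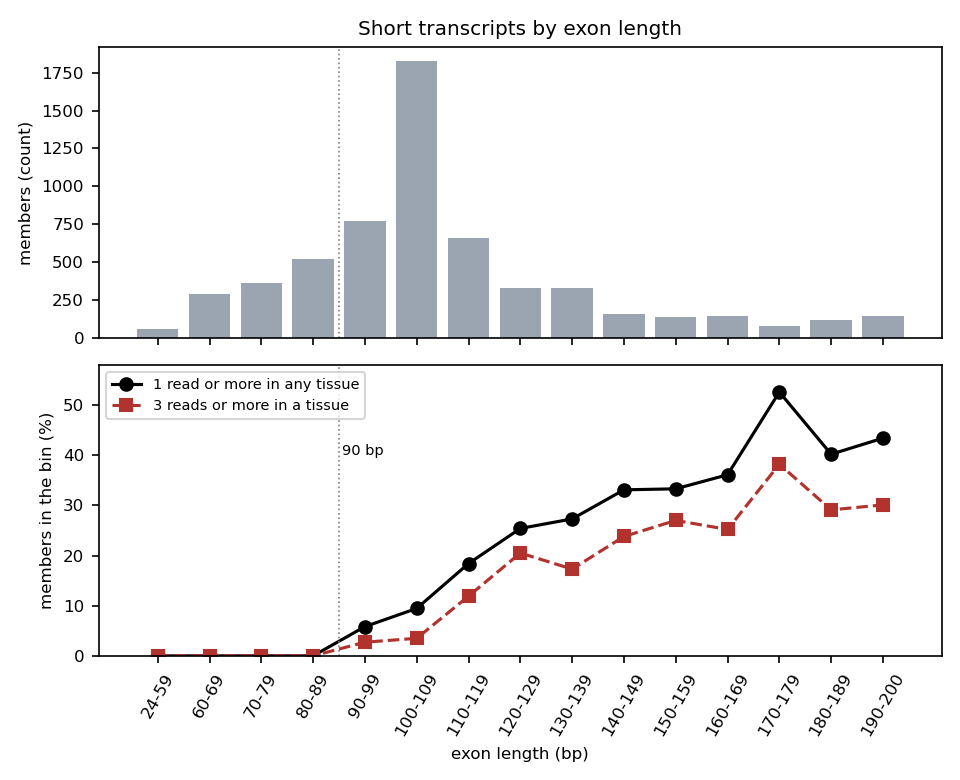
Number of short transcripts per bin of exon length (top) and the percentage of each bin with 1 read or more in any library (circles) or 3 reads or more in a library (squares). No transcript left of the dotted line at 90 bp had a read, and 43.4% of those of 190 to 200 bp had one.

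Short transcripts without a gene identifier were counted more often. Of 359 such transcripts, 196 (54.6%) had a read, and their median length was 152 bp. Under 90 bp there were 17 of them, and 2 had reads: an 87-bp transcript that spanned 17645 bp had 6 reads in cerebellum, and an 84-bp transcript had 1 read in kidney. A read on a transcript shorter than the read was thus rare in these files but did occur.

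At the ends of the length range, the 3 shortest transcripts (24, 30 and 30 bp) had 0 reads in every library. They are shorter than a read, so that this 0 sets no upper level. At the limit of 200 bp there were 5 transcripts. SNORA73 (an H/ACA snoRNA) had 0 reads, IMMRT10010039650 had 2 reads in lung and 0 elsewhere, and IMMRT10001033824 had 7 reads in cerebellum and 0 elsewhere. SNORA25, another H/ACA snoRNA, had 7 reads in cerebellum, 3 in heart, 4 in kidney, 7 in lung and 19 in spleen. DYNLRB1, which encodes a dynein light chain, had 13 reads in cerebellum, 4 in heart, 4 in kidney, 4 in lung and 1 in spleen. Of the 25 transcripts of 201 bp with an identifier, just outside the limit, 10 had a read.

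At the floor of 3 reads, lung had the most short transcripts detected, 307 of 5924 (5.18%), against 68.8% of all 51763 transcripts. Cerebellum had 301 (5.08%, all transcripts 65.0%), spleen 289 (4.88%, all transcripts 65.4%), kidney 159 (2.68%, all transcripts 64.0%) and heart 130 (2.19%, all transcripts 58.9%). With 1 RPKM required as well, 142 short transcripts were left in spleen (2.4%, all transcripts 47.4%) and 126 in lung (2.13%, all transcripts 49.1%). There were 91 in cerebellum (1.54%, all transcripts 42.8%), 62 in kidney (1.05%, all transcripts 45.2%) and 37 in heart (0.625%, all transcripts 33.7%). The median level of the detected short transcripts was highest in spleen (0.986 RPKM) and lowest in heart (0.592), with 0.805 in kidney, 0.798 in lung and 0.636 in cerebellum. The other transcripts past the same floor had medians of 1.4 (heart) to 3.84 RPKM (spleen). The median detected short transcript rested on 5.5 (heart) to 9 reads (lung and spleen), and 11 (kidney) to 38 (spleen) of them had 30 reads or more.

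Detection was often limited to few libraries. At the floor in at least 1 tissue were 506 short transcripts (8.54%, all transcripts 76.6%), 207 in exactly 1 tissue (3.49%, all transcripts 6.78%) and 67 in all 5 (1.13%, all transcripts 52.4%). Among transcripts at the floor anywhere, 40.9% of the short ones and 8.43% of the 39165 others were so in exactly 1 tissue, and 13.2% against 69.1% in all 5. These sets were not matched for reads. In a library, the median count at the floor was 5.5 (heart) to 9 (lung and spleen) for the short ones. For the others it was 187 (heart) to 492 (lung), and the part of this difference in the shares was not tested. Of the 207, 76 were in cerebellum, 53 in lung, 59 in spleen, 10 in heart and 9 in kidney. Kidney was the shallowest library, and heart had the lowest share of mapped reads on transcripts. Their part in these low counts was not tested, but with all libraries scaled to the kidney depth the counts at the floor were 226 in spleen, 221 in lung, 189 in cerebellum, 159 in kidney and 98 in heart.

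Among the snoRNAs, 48 of 81 C/D snoRNAs of 90 bp or more (59.3%) and 54 of 109 H/ACA snoRNAs (49.5%) had a read, and 8 and 9 of them were at the floor in all 5 tissues. SNORA18, a guide RNA of the H/ACA family inside TAF1D, had 58 reads in cerebellum, 60 in heart, 20 in kidney, 28 in lung and 54 in spleen. Its level was highest in heart at 6.97 RPKM (5.41 to 8.97) and lowest in lung at 2.65 RPKM, and heart and spleen (5.92 RPKM) differed by a ratio of 1.18 whose interval, 0.802 to 1.73, includes no difference. SNORD83, inside the RNA helicase gene DDX39B, had 20, 7, 55, 10 and 36 reads in cerebellum, kidney, lung, heart and spleen. SNORD30 had 27 reads in cerebellum, 8 in heart, 0 in kidney, 23 in lung and 33 in spleen. SNORA63, inside the translation factor gene EIF4A2, had 47 reads in lung, 28 in spleen, 9 in cerebellum and 7 in each of heart and kidney. Of the 7 scaRNAs, 4 had a read, and the highest count was 15 reads over the 5 libraries, on SCARNA1.

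Imprinted snoRNA clusters on chromosome 7 had few reads. Most transcripts were under 90 bp in 2 of the 3 clusters, but not in the SNORD116 cluster. The interval from the first to the last SNORD113 and SNORD114 gene (chr7:164226331-164274018) held 34 short transcripts, of which 7 had 90 bp or more and 6 had reads: 30 in cerebellum, 0 in heart, 2 in kidney, 13 in lung and 10 in spleen. The SNORD115 interval (chr7:4148710-4214573), a brain-expressed cluster in mammals, held 31 short transcripts, of which 4 had 90 bp or more. All 8 reads counted there were from cerebellum, on 3 transcripts. The SNORD116 interval (chr7:3980496-4018075) held 20 short transcripts, 18 of 90 bp or more, and 2 of them had reads: 14 in cerebellum, 1 in heart, 2 in kidney, 0 in lung and 1 in spleen. The counts were highest in cerebellum in each of the 3 intervals, and no transcript in them passed 16 reads over the 5 libraries.

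The spliceosomal RNAs were mostly under the floor. A read was counted on 22 of 79 U1, 10 of 52 U2, 14 of 68 U4, 5 of 22 U5 and 74 of 654 U6 transcripts, and none of these copies was at the floor in all 5 tissues. The U6 copy ENSMMUG00000032747 (chr3:137951318-137951509, 192 bp, on no longer transcript) had the most reads of its family, with 99 in cerebellum, 2 in heart, 16 in kidney, 2 in lung and 12 in spleen. At 6.33 RPKM in cerebellum it was 3.67 times its level in kidney (interval 2.15 to 6.66). A U4 copy that overlaps an edge of the epithelial membrane gene TMC5 and lies mostly outside it (ENSMMUG00000023843, chr20:18470143-18470298) had 38 reads in lung, or 3.13 RPKM, and 0 in the other 4 libraries. TMC5 itself was at 6.13 RPKM in lung and at 0.0422 RPKM or less elsewhere. A second U4 copy, ENSMMUG00000034764 inside HCLS1, a gene of blood cells, had 5, 0, 13, 0 and 32 reads in cerebellum, kidney, lung, heart and spleen, and HCLS1 was also highest in spleen (32.7 RPKM) and next in lung (7.83 RPKM).

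Of the 4 U7 transcripts of 90 bp or more, each had a read, with 78 reads in all, and the most on ENSMMUG00000036337: 13 in cerebellum, 3 in heart, 5 in kidney, 10 in lung and 3 in spleen. RNU4ATAC18P, whose symbol marks a pseudogene copy of the minor spliceosomal U4atac RNA, had 32, 11, 62, 16 and 50 reads in cerebellum, kidney, lung, heart and spleen, and it was at the floor in every library.

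Y RNA transcripts all had 90 bp or more, and 51 of 332 (15.4%) had a read. The copy ENSMMUG00000027466 (chr7:135933549-135933670, 122 bp, on no longer transcript) had 40 reads in cerebellum and 0 in each other library. Its level of 4.02 RPKM in cerebellum was 7.9 times the highest level that 3 reads would give in another library. Counting error of its 40 reads is not part of this ratio. ENSMMUG00000026638, inside ANAPC16, had 53, 18, 15, 9 and 26 reads in cerebellum, kidney, lung, heart and spleen, and ENSMMUG00000024109 had 7, 12, 20, 3 and 63. These 3 copies of a single family thus differed in the tissue with the most reads, cerebellum for the first and second and spleen for the last. The last lies inside a longer transcript without a gene identifier that was also highest in spleen, at 21.0 RPKM, and next in lung, at 15.3 RPKM. ANAPC16, around the second copy, was highest in spleen at 28.4 RPKM and not in cerebellum (13.1 RPKM).

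Among the microRNA entries of 90 bp or more, 34 of 154 (22.1%) had a read, and 2 were at the floor in all 5 tissues. Whether these reads came from the hairpin precursor or from sequence beside it was not determined. The mml-mir-214 entry (chr1:201833014-201833204, 191 bp) lay inside DNM3, a dynamin gene, and had 2 reads in cerebellum, 3 in heart, 64 in kidney, 86 in lung and 75 in spleen. Its levels were 6.94 RPKM in kidney, 5.85 in spleen, 5.79 in lung, 0.248 in heart and 0.129 in cerebellum, while DNM3 was at 4.64 RPKM in cerebellum and at 0.804 RPKM or less elsewhere, so that the 2 transcripts had their highest level in different tissues. In kidney the microRNA entry was at 56.1 times the level of DNM3. The mml-mir-133a entry (chr18:14832030-14832228, 199 bp), a microRNA known from muscle, had 35 reads in heart, or 2.78 RPKM (2.00 to 3.86), and 0 in the other libraries. That level in heart was 8.9 times the highest level that 3 reads would give in another library, with counting error left out. mml-mir-939 had 18, 10, 27, 4 and 24 reads in cerebellum, kidney, lung, heart and spleen.

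Both 5.8S rRNA entries had a read, with 95 reads in all. ENSMMUG00000025378 had 10 reads in cerebellum, 8 in heart, 46 in kidney, 8 in lung and 22 in spleen, 2.91 times higher in kidney than in spleen by RPKM (interval 1.71 to 5.07). Of 24 5S rRNA transcripts, 1 had a read, and of 5 vault RNA transcripts, 1 had a read. The 23 mitochondrial short transcripts had 0 reads, and so had the other 15 mitochondrial transcripts of the files. A value of 0 there cannot be read as absence.

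**Figure D3:**
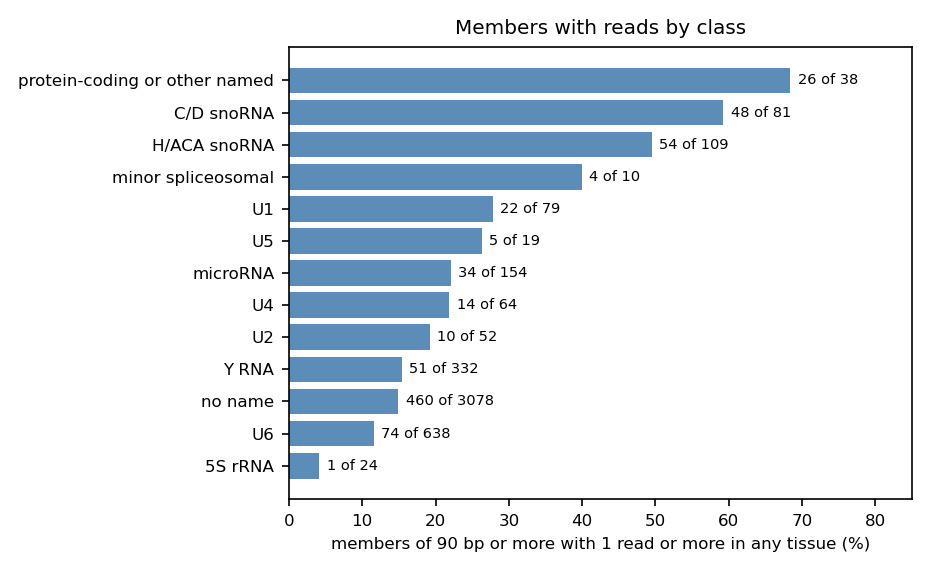
Percentage of transcripts of 90 bp or more with 1 read or more in any library, by class of gene name, with the counts beside the bars. Classes with fewer than 10 transcripts of that length were left out. C/D snoRNAs (48 of 81) stand near the top and U6 copies (74 of 638) near the bottom.

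There were 38 transcripts of protein-coding or otherwise named genes, and 26 of them had a read. They held 11.2% of the short-transcript reads, and 2.05% without RPL38. This class rests on the symbol. Unnamed transcripts, with 79.2% of the reads, were not sorted by type, so the protein-coding share of the reads is not known. RPL38, a protein of the large ribosomal subunit, is listed with 174 bp of exon over 4707 bp of genome. It had 853 reads in cerebellum, 820 in heart, 489 in kidney, 1392 in lung and 2033 in spleen, and its levels were 174 RPKM in spleen, 103 in lung, 74.4 in heart, 60.1 in cerebellum and 58.2 in kidney. Spleen was above lung by a ratio of 1.69 (1.58 to 1.81). A short transcript of LSM2, a component of the U6 snRNP, had 84, 38, 160, 39 and 146 reads in cerebellum, kidney, lung, heart and spleen, and spleen and lung (17.0 and 16.1 RPKM) were not separated by their reads, with an interval of 0.839 to 1.33 around the ratio of 1.06. Ribosomal protein genes have processed copies in the genome, so the reads of RPL38 may have been shared with them.

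The reads were held by very few transcripts. Of 61009 reads on all short transcripts, 30.6% were on the first and 70.7% on the first 5. The sixth brought the share to 73.6%, and the seventh had 467 reads. None of these 6 but RPL38 had a name in the reference table.

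The transcript with the most reads, IMMRT10010011362 (ENSMMUG00000022188, chr4:145433355-145433547, 193 bp), had 10 reads in cerebellum, 18374 in heart, 18 in kidney, 156 in lung and 141 in spleen. Its level was 1503 RPKM in heart (1482 to 1525) and 10.9 RPKM or less elsewhere, with a ratio of 138 between heart and spleen (117 to 164). The transcript lies inside CEP85L, which had 3.14, 1.197, 3.66, 1.18 and 4.35 RPKM in cerebellum, kidney, lung, heart and spleen. CEP85L thus had its lowest level in heart, close to that in kidney, and there the short transcript was at 1278 times its level. Whether the 2 are on the same strand is not given in the files.

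IMMRT10010011414 (ENSMMUG00000008939, chr4:149941515-149941708, 194 bp, on no longer transcript) was abundant in every tissue. It had 1006 reads in cerebellum, 1565 in heart, 1008 in kidney, 4115 in lung and 5249 in spleen, and its levels were 403 RPKM in spleen, 273 in lung, 127 in heart, 108 in kidney and 63.6 in cerebellum. Spleen was above lung by a ratio of 1.48 (1.42 to 1.54), and this transcript had the highest RPKM of all short transcripts in every library but heart.

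IMMRT10010036560 (ENSMMUG00000032528, 193 bp, chromosome 18) was high in lung and spleen, with 212, 116, 1674, 138 and 1663 reads in cerebellum, kidney, lung, heart and spleen. Its levels were 111.5 RPKM in lung and 128 RPKM in spleen, against 11.3 to 13.5 RPKM in the other 3. IMMRT10010024074 (ENSMMUG00000027264, chr11:13287112-13287283, 172 bp) was counted almost entirely in lung, with 2089 reads there, 11 in kidney, 3 in heart, 1 in cerebellum and 1 in spleen. It stood at 156 RPKM in lung (150 to 163) and at 1.32 RPKM in kidney, a ratio of 118 (65.8 to 237).

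IMMRT10010016830 (ENSMMUG00000032645, chr7:85863004-85863155, 152 bp) had the smallest spread over tissues of the short transcripts with 30 reads or more in each. It had 399 reads in cerebellum, 370 in heart, 391 in kidney, 283 in lung and 308 in spleen, and its levels ran from 53.3 RPKM in kidney through 38.4 in heart, 32.2 in cerebellum and 30.2 in spleen to 23.9 in lung. It lies inside PSMB5, which encodes a proteasome subunit. PSMB5 was at 42.8 RPKM in kidney, 30.1 in heart, 28.6 in cerebellum, 21.3 in spleen and 17.3 in lung, and both had the same order of tissues, kidney above heart, cerebellum, spleen and lung.

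For the pattern over tissues, 65 short transcripts with 30 reads or more in at least 1 library were used. Their lengths were 96 bp or more with a median of 158 bp, 25 had a name, and 35 were at the floor in all 5 tissues. The highest RPKM was in spleen for 25 (38.5%), where 32.7% of all 34050 transcripts with as many reads were highest. It was in cerebellum for 17 (26.2%, all transcripts 21.1%), in lung for 13 (all transcripts 22.4%), in kidney for 6 (9.23%, all transcripts 18.6%) and in heart for 4 (6.15%, all transcripts 5.24%). Spleen was thus the most frequent highest tissue in both sets. In bulk tissue, fewer cells of a type and less RNA per cell cannot be told apart. For 29 of the 65, the counting interval of the ratio between the highest and the next tissue included 1, so that the highest tissue was not separated from the next at this depth. It lay above 1 for 32, and 4 had reads in a single library.

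The median difference of log2(RPKM + 1) between a tissue and the mean of the other 4 was 0.66 in spleen and 0.49 in lung for the 65 short transcripts, and −0.24 in cerebellum, −0.58 in kidney and −0.75 in heart. For the other transcripts with as many reads it was 0.28 in spleen, 0.29 in lung, −0.19 in cerebellum, −0.04 in kidney and −0.81 in heart. The sign was the same in every tissue in both sets. The pseudocount of 1 shrinks the differences of low transcripts.

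A level 4-fold or more above the next tissue, on the scale of RPKM + 1, was seen for 7 of the 65 short transcripts. It was in cerebellum for 3 (4.62%, all transcripts with as many reads 3.86%) and in lung for 2 (3.08%, all transcripts 1.49%). For 1 it was in spleen (1.54%, all transcripts 1.71%), for 1 in heart (1.54%, all transcripts 0.978%) and for 0 in kidney (0%, all transcripts 3.07%). No difference from all transcripts is read from counts this small. The 2 of lung were ENSMMUG00000027264 and the U4 copy at the edge of TMC5, the heart transcript was ENSMMUG00000022188, and the 3 of cerebellum were the Y RNA copy ENSMMUG00000027466 and a pair of unnamed transcripts. ENSMMUG00000035361 (chr2:105000296-105000441, 146 bp, on no longer transcript) had 186 reads in cerebellum, 1 in kidney and 0 in lung, heart and spleen, or 15.6 RPKM in cerebellum (13.5 to 18.04) and 0.142 RPKM in kidney. The ratio of 110 had a counting interval of 19.5 to 4377. ENSMMUG00000036898 (chr20:45333273-45333405, 133 bp) had 99 reads in cerebellum, 3 in heart, 0 in kidney, 1 in lung and 0 in spleen, and its ratio to heart was 25.6 (8.52 to 126). It lies inside an unnamed transcript that was also highest in cerebellum, at 23.7 RPKM against 2.22 RPKM or less elsewhere.

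Other transcripts with large steps stayed under 4-fold on that scale. In lung, ENSMMUG00000025706 (151 bp), inside SLC26A5, which encodes the motor protein prestin, had 4 reads in cerebellum, 0 in heart, 0 in kidney, 41 in lung and 0 in spleen. SLC26A5 was at 0.248 RPKM in cerebellum, 1.46 RPKM in lung and 0 in the other 3. The transcript past 4-fold in spleen, ENSMMUG00000035837 (chr15:21561321-21561453, 133 bp, on no longer transcript) had 36 reads there and 0 in every other library. Its level in spleen was 8.64 times the highest level that 3 reads would give in another library, with counting error left out. ENSMMUG00000034731 (116 bp), inside the class II antigen-presentation gene MAMU-DMB, had 0 reads in cerebellum, 0 in heart, 1 in kidney, 19 in lung and 82 in spleen, and MAMU-DMB was at 131 RPKM in spleen and 28.5 RPKM in lung. ENSMMUG00000037184 (191 bp), inside the chromatin remodeller gene CHD3, had 8, 11, 45, 10 and 132 reads in cerebellum, kidney, lung, heart and spleen.

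In kidney the steps over the next tissue were smaller. ENSMMUG00000011331 (199 bp), inside ARHGAP35, had 96 reads in cerebellum, 34 in heart, 82 in kidney, 100 in lung and 27 in spleen, and kidney and lung had a ratio of 1.32 with an interval of 0.974 to 1.79. In heart, after ENSMMUG00000022188 and mml-mir-133a, ENSMMUG00000036432 (124 bp, chromosome X) had 6, 19, 2, 53 and 6 reads in cerebellum, kidney, lung, heart and spleen, and heart was above kidney by 2.13 (1.24 to 3.81).

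**Figure D4:**
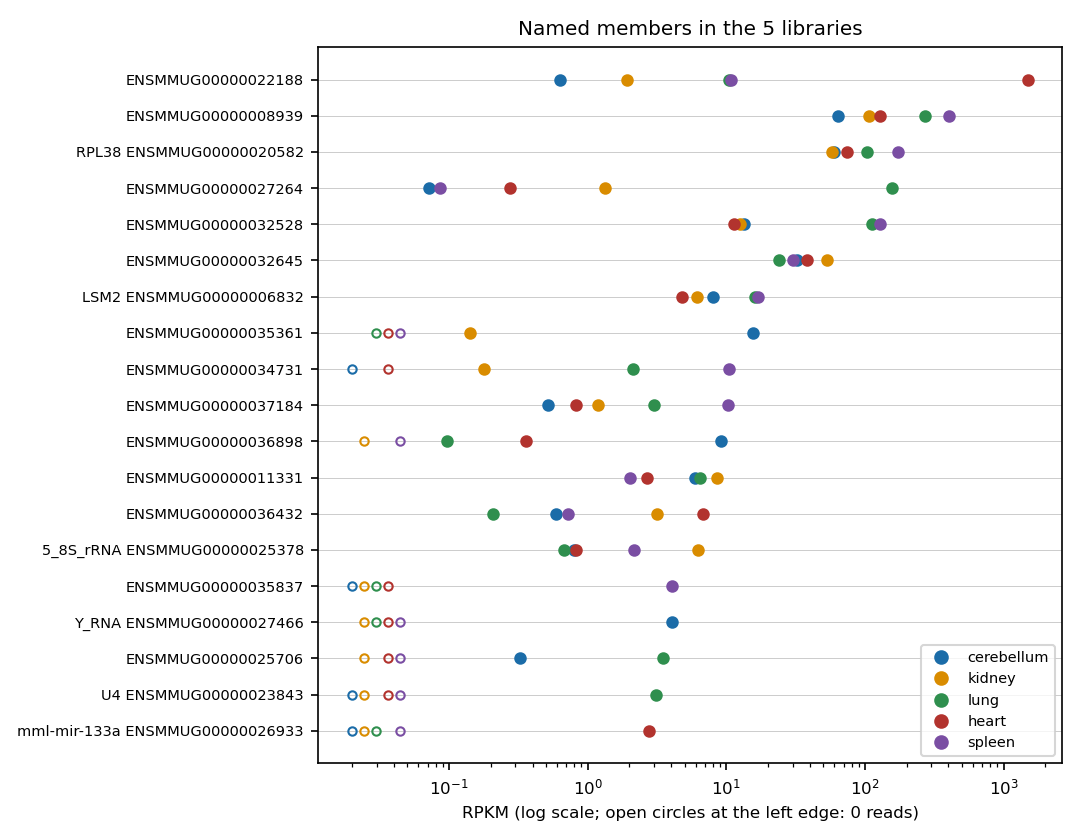
RPKM (log scale) in the 5 libraries of the short transcripts with the highest level, the largest step over the next tissue or the smallest spread. Filled circles are libraries with reads and open circles, spread at the left edge so that each can be seen, are libraries with 0 reads. ENSMMUG00000022188 reaches 1503 RPKM in heart, and ENSMMUG00000032645 stays between 23.9 and 53.3 RPKM in all 5.

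Overlap with a longer transcript went with detection. A longer transcript overlapped 2677 of the 5924 (45.2%), and 2623 lay inside it. Of those of 90 bp or more, 27.3% had a read where a longer transcript overlapped and 8.95% where none did. Where several longer transcripts overlapped, the one with the highest RPKM summed over the 5 tissues was used. The share with a read rose with the highest level of that transcript over the 5 tissues: 12.8% of 407 below 1 RPKM, 25.4% of 539 from 1 to 5 RPKM, 29.7% of 807 from 5 to 20 RPKM and 39.6% of 396 at 20 RPKM or more. The files give neither strand nor exon positions, and whether a short transcript lies in an exon or an intron of the longer one was therefore not determined. Reads of the longer transcript that cover the short one could have been counted on both.

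Of the 65 short transcripts with 30 reads or more, 48 overlapped a longer transcript. Where several overlapped, the one with the highest RPKM summed over tissues was again used. Of the 48, 31 had their highest level in the same tissue as that longer transcript. The short transcript was at a median of 0.385 times the RPKM of the longer one in its highest tissue, with a range of 0.0161 to 1278 over the 47 pairs for which the longer transcript had reads. In 10 pairs the short transcript was above. At the low end, ENSMMUG00000036530 inside the synaptic vesicle gene SYT1 had 39 reads in cerebellum, 5 in spleen and 0 in kidney, lung and heart, or 2.75 RPKM in cerebellum where SYT1 was at 171 RPKM. SNORA18 in heart, at 10.7 times the level of TAF1D, was among the 10 above.

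**Figure D5:**
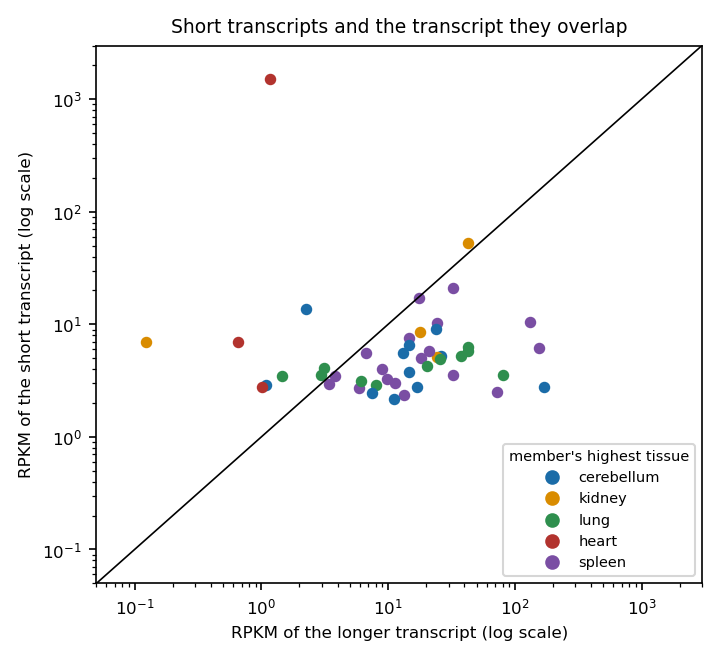
RPKM (log scale) of the short transcript against that of the longer transcript it overlaps, in the tissue where the short transcript was highest, for 47 pairs with the tissue in colour. Points above the line are short transcripts at a higher level than the longer one (10 pairs), with the heart transcript inside CEP85L at the top.

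Detection also differed by the start of the transcript identifier, whose digits are not explained in the sources used here. Of 5490 short transcripts whose identifier starts with IMMRT10000, 438 (7.98%) had a read, and they held 12.9% of the reads. Of the other 434, 376 (86.6%) had a read, and of the 404 with 90 bp or more among them 93.1% did. The 2 sets also differed in length, with medians of 104 and 132 bp. The same split held within families: 39 of 619 U6 copies against 35 of 35, 34 of 315 Y RNAs against 17 of 17, 24 of 79 H/ACA snoRNAs against 30 of 30, and 8 of 280 microRNA entries against 26 of 30. Among U6 copies the median length was 105 bp in the first set and 125 bp in the second. Longer transcripts with an identifier had a read in 77.5% of the first set and 98.8% of the second. Of the 65 transcripts with 30 reads or more, 62 were of the second set. What the identifier records, and its part in these counts, was not tested.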

How the data were processed

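Strand-specific poly(A)-positive RNA-Seq of 5 macaque tissues was analysed, with 1 library per tissue. The study's methods describe alignment of 90-bp paired-end reads with BWA to rheMac2 and to Ensembl transcripts for the calling of RNA editing, keeping unique alignments. Whether the counts were made from these alignments is not stated, and the submitters' processing notes name TopHat 1.2.0. The counting tool is not given in the sources used here. The deposited read counts per transcript were not normalized, and the RPKM values that the authors deposited beside them could be recomputed from the counts, the exon length and the properly mapped reads (48306898 to 81517974 per library). A count share on so many reads is precise to counting error, but a short transcript rests on few reads.

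The 5 lists were merged on the transcript identifier, with starts given 1-based. In the heart and spleen files, 7 transcripts had another exon length, none of them a short transcript. Symbols came from a table of Ensembl identifiers and matched 2014 of 5924. Overlap was computed from the span of each transcript. Where several longer transcripts overlapped, the one with the highest RPKM summed over tissues was used, so the choice rested on level and not on position. Members, classes and lists were chosen with earlier results of these data known. No test was made, since each tissue had 1 library. Intervals are 95% Wilson intervals of reads, or Clopper-Pearson intervals of the split of reads between 2 libraries for ratios; the floor was 3 reads per library. Tissue patterns used transcripts with 30 reads or more, log2(RPKM + 1) and a 4-fold step.

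The transcripts named were, per tissue, the 3 with the highest RPKM and up to 3 with the largest step of log2(RPKM + 1) over the next tissue (30 reads or more there), the 3 with the smallest spread, the 2 with the most reads in each class (named here for most classes), the 3 shortest and the longest. Since 5 transcripts of 200 bp and 25 of 201 bp tied, all 5 and a count of the 25 are given. Others (mml-mir-25, 2 of the 5 transcripts of 200 bp, the transcript inside SYT1 and the transcripts without an identifier) were named after their values were seen. The intervals of the imprinted snoRNA clusters were also not part of these rules. The rule asked for the highest ratio of the difference to the next tissue, which was computed as the largest step. Alternatives were other floors, levels, length limits, scalings and pseudocounts.

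Software was pandas 2.3.3 and numpy 2.4.6 for tables, scipy 1.17.1 for intervals and matplotlib 3.10.9 for plots, under Python 3.11.15. The pattern rule was run on simulated data built from transcripts with more reads than most short transcripts had. That simulation therefore does not show how the rule works at low counts.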

Additional observations from a re-analysis of the deposited data

How the results depend on the processing

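No paired analysis was possible because each tissue has 1 library, and no replicate could be left out. Of 102 values under alternative settings, 24 stayed within 1.5 times the main count or within the interval and 78 moved. Some of the 24 could not have moved. Transcripts under 90 bp had no read, so leaving them out changed no count of detection. Kidney was itself the depth that reads were scaled to, and cerebellum was the reference of the upper-quartile scaling at 1 RPKM. The 5 median differences kept their sign. In the order cerebellum, kidney, lung, heart and spleen, the short transcripts detected were 519, 358, 485, 257 and 411 at 1 read, 115, 46, 141, 34 and 143 at 10 reads, and 91, 62, 126, 37 and 142 at 1 RPKM with no read floor. They were 84, 35, 71, 26 and 57 among those on no other transcript and 180, 70, 180, 58 and 174 under a limit of 150 bp. With reads scaled to the shallowest library, cerebellum fell to 189. At 5 RPKM, 15, 10, 17, 7 and 17 were left, and scaling by the upper quartile moved heart at 1 RPKM from 37 to 69.

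The number highest in each tissue was 58, 17, 59, 7 and 92 with 10 reads as the minimum, 3, 2, 1, 1 and 7 with 100 reads, 232, 98, 216, 42 and 226 with any read, and 6, 2, 1, 1 and 7 on no other transcript. With any read, cerebellum was thus the most frequent highest tissue, ahead of spleen. Scaling by the upper quartile raised heart from 4 to 11. A pseudocount of 0.1 gave median differences of −0.14, −0.71, 0.85, −1.28 and 0.98. The share of reads was 0.0115%, 0.00962%, 0.0199%, 0.0743% and 0.0241% of the reads on transcripts, and 0.00695%, 0.00561%, 0.0129%, 0.00657% and 0.0129% of mapped reads without the top transcript.

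Some settings were chosen after seeing the data. Identifiers starting with IMMRT10000 alone gave 74, 26, 74, 16 and 68 detected and 0.00174%, 0.00158%, 0.00261%, 0.00155% and 0.00397% of the reads, and without the spleen library 23 transcripts were highest in lung. Short transcripts under 90 bp had 0 reads in every library, and that 0 cannot be read as absence.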
